A study of Mus musculus with 12 samples.

Results

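Semaphorins, their plexin and neuropilin receptors, and the cytosolic proteins that relay the signal were followed in neural stem/progenitor cells (NSPCs) of wild-type and Ythdf2-/- mice. The members were chosen by gene symbol alone: every single-letter semaphorin of a numbered class (Sema3a to Sema7a), every plexin of the A, B, C and D subfamilies, Nrp1, Nrp2, Crmp1 and Dpysl2 to Dpysl5. This gave 36 of the 24525 genes counted, namely 20 semaphorins, 9 plexins, 2 neuropilins and 5 mediators. RNA-seq came from neurospheres, floating cultures grown with EGF and bFGF from C57BL/6 forebrain at E14.5 and sampled at passage 1, with 3 libraries for each genotype. They are the input libraries of an m6A-immunoprecipitation experiment, and the 6 precipitated libraries were not analysed here. In the targeted allele, LoxP sites made by CRISPR-Cas9 lie on both sides of the 5′ UTR and exon 1 of Ythdf2, the segment between them was removed by a deleter Cre line in the whole animal, and Ythdf2-/- embryos came from heterozygous parents, so the loss is not limited to neural cells. No agent was given to either group. The study calls the replicates biological, nothing in the labels says which embryos or litters they came from, and the p-values measure the spread between these libraries only.

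Semaphorins are guidance cues that steer growing axons and migrating cells, often by making the leading edge collapse. Those of class 3 are secreted in vertebrates, while classes 4 to 7 stay in the membrane, by a transmembrane stretch in classes 4 to 6 and a lipid anchor in Sema7a. Plexins are the signalling receptors and carry a GTPase-activating domain inside the cell. Most secreted semaphorins reach plexins of the A subfamily through a neuropilin co-receptor, Nrp1 for Sema3a and Nrp2 for Sema3c and Sema3f among others, whereas Sema3e can bind Plxnd1 and many membrane semaphorins bind plexins directly. Crmp1 and the Dpysl proteins, the collapsin response mediators, bind tubulin and carry the signal to the cytoskeleton. In the developing forebrain these genes are known from axon guidance, interneuron migration and the layering of the cortex.

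YTHDF2, the protein lost in the mutant, binds RNA that carries m6A, and m6A is laid down in a short sequence context of which GGACT, with U in place of T in the RNA, is a common form. The coding sequences of Nrp2, Nrp1 and Sema3a, a co-receptor pair and the ligand of one of them, are shown here with that motif because these 3 genes had the largest positive differences among members above 10 CPM in the fit of all 6 libraries; without wild-type replicate 3, described further on, Plxnb3, Sema6a, Sema5a, Dpysl2, Sema4g, Plxnb1 and Plxnc1 lay above Sema3a and Nrp1. The windows are 29 bases long and were read by RefSeq coordinates from GRCm38.p6, which carries the chromosomes of mm10. They run 5′ to 3′ on the plus strand, which is the sense strand of all 3 genes, and the capitals mark GGACT. Only the sense strand was searched, each window had to lie within a single coding exon, and a match is a description of the letters and not a methylation site. The last 2 windows of Nrp2 overlap each other, as do the last 2 of Sema3a.
Nrp2 chr1:62718985-62719013: aggctacccccaGGACTatccctcccacc
Nrp2 chr1:62744248-62744276: tccacacaatctGGACTgtaccttcacca
Nrp2 chr1:62747236-62747264: ctgatgggaggtGGACTcctcaacagagc
Nrp2 chr1:62762986-62763014: cctaaatggcaaGGACTgggaatatatcc
Nrp2 chr1:62763012-62763040: tccaggaccccaGGACTcagcagacaaag
Nrp1 chr8:128434326-128434354: ctgaaaatgggtGGACTccaggagaagac
Nrp1 chr8:128457964-128457992: ctccaacggagaGGACTggatctccctga
Nrp1 chr8:128468370-128468398: ggcatggtgtctGGACTtatttcagactc
Sema3a chr5:13516212-13516240: ttttaagctgcaGGACTcacattttgaaa
Sema3a chr5:13523070-13523098: tggaactgctgcGGACTtcatgggacggg
Sema3a chr5:13523085-13523113: cttcatgggacgGGACTtcgctatcttca

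The 5 windows are all the matches in the 2796 coding bases of Nrp2, the 3 of Sema3a are all those in its 2319, and 3 of the 4 matches in the 2772 coding bases of Nrp1 are shown. Over the whole longest transcript, Nrp2 held 10 matches, Nrp1 held 9 and Sema3a held 5. Per kb of transcript the median was 1.5 for the neuropilins, 1.23 for the semaphorins, 1.05 for the plexins and 0.677 for the mediators. Over 13044 tested genes with a sequence the median was 1.05 and 92.0% held the motif, so a match is the rule and not the exception among these transcripts. All 36 members held it. Nrp1 lay above 74.8% of those genes in matches per kb, Nrp2 above 73.3% and Sema3a above 30.5%. The lowest of the mediators was Crmp1, with 1 match in its transcript, and it lay above 10.9%.

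Each library held 11029827 to 13185778 counted reads, of which the members took 0.218% to 0.373%. Levels are given as CPM, read counts scaled to library size with TMM factors, and for comparisons between genes as CPM per kb of exon. Ythdf2 had 840, 961 and 999 reads in the wild-type libraries and 137, 198 and 138 in the Ythdf2-/- libraries, so every library followed its label. Its log2 fold change was -2.66 ± 0.183 (SE, n = 3 per group; edgeR's quasi-likelihood test, adjusted p = 0.0547). Wild-type replicate 3 stood apart from the other 5 libraries. The first principal component of the most variable genes, with 74.2% of the variance among those genes, placed it at 91.0 and the others between -30.6 and -6.04. Some markers of differentiated cells stood high in the same library. The summed level of 10 oligodendrocyte lineage markers was 4532 CPM there against 1733 to 2162 CPM elsewhere, with Mbp, a myelin protein, at 572 CPM against 1.21 to 8.84 CPM. Of the same list 6 markers were highest there, Olig1, Olig2 and Cspg4 were lowest there, and Mog was at or near 0 everywhere. The 7 astrocyte markers summed to 6291 CPM against 1208 to 2379 CPM, of which Gfap alone gave 3043 CPM, and 3 of the 7 (Gfap, Aqp4 and Aldoc) were highest there. The 10 neuron markers summed to 2144 CPM against 1287 to 1511 CPM and 6 of them were highest there and Gap43 was lowest, with Dcx at 315 CPM against 8.35 to 13.1 CPM. The 8 progenitor markers, which define the labelled cell type, summed to 5248 CPM there and to 7928 to 9134 CPM in the other libraries. Of these, Nes, Vim and Fabp7 were lowest there, while Sox2, Pax6, Hes5 and Msi1 were highest there. Between the genotypes, 5 of the 9 oligodendrocyte lineage markers tested had an unadjusted p under 0.05 in edgeR (3.63% of all genes). None had an adjusted one (0% of all genes). The median of that list was -0.84 on the log2 scale and -0.17 without wild-type replicate 3. Of the 10 neuron markers 2 had an unadjusted p under 0.05 in edgeR, with medians of -0.59 and 0.15. For the 7 astrocyte markers the count was 1, with medians of 0.11 and 0.17. For the 8 progenitor markers it was 0, with medians of 0.04 and 0.23. Gfap, an astrocyte filament, measured 436, 624 and 3043 CPM in wild type and 127, 87.6 and 5.55 CPM in Ythdf2-/-, without overlap (as in 10.2% of all genes). The other astrocyte markers overlapped between the genotypes, such as Slc1a2 at 402, 494 and 424 CPM in wild type and 564, 204 and 750 CPM in Ythdf2-/-. Microglial markers summed to at most 1.54 CPM and endothelial markers to at most 2.39 CPM in any library, and mesenchymal markers to 32.4 CPM in wild-type replicate 3 against at most 4.34 CPM elsewhere, a sum of which Pdgfrb alone gave 31.7 CPM in wild-type replicate 3. Reads of 4 Y-linked genes were present in wild-type replicates 1 and 2 and Ythdf2-/- replicate 3 and near 0 in the others. In these bulk libraries fewer cells of a type and less RNA per cell cannot be told apart, and the part that these differences have in the values below was not tested. Fold changes of the genes described in full are therefore also given without wild-type replicate 3.

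The receptors and mediators were led by a few members. Plxnb2, a plexin known from cell migration in the developing brain, had the highest level per length, a mean of 61.1 CPM per kb over the 6 libraries. Dpysl3 followed with 51.0 CPM per kb and Sema6d, a transmembrane semaphorin that binds Plxna1, with 41.1 CPM per kb. Next came Dpysl2 at 34.2, Plxnb1 at 30.5, Crmp1 at 23.3, Sema6a at 18.6 and Sema5b at 18.2 CPM per kb. These neighbours in the order did not all separate: Sema6a ranged from 89.0 to 178 CPM across libraries and Sema5b from 68.3 to 113 CPM. Secreted class 3 semaphorins were low, apart from Sema3a at 7.59 CPM per kb and Sema3c at 2.17 CPM per kb. Sema3f, Sema3g and Sema4f had 1 to 20 reads in any library and did not pass the filter on low counts, which left 33 members for the tests.

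**Figure D1:**
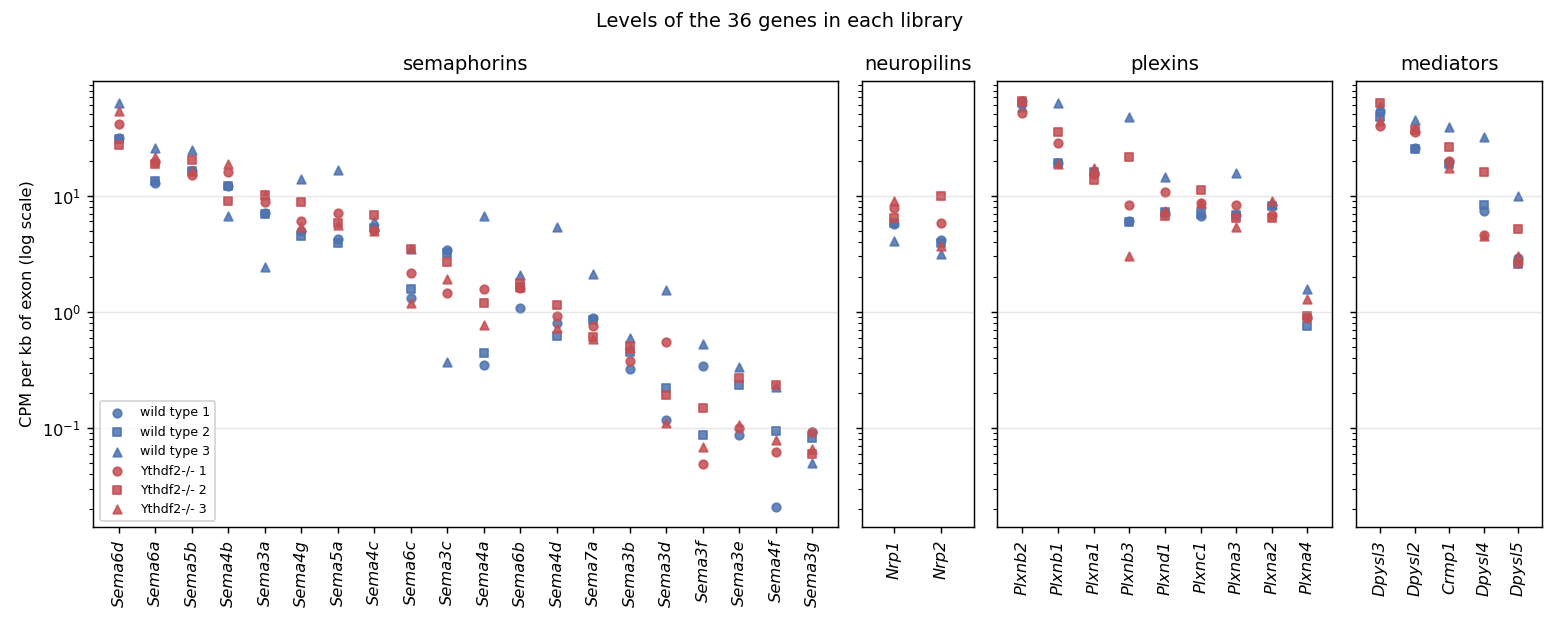
Level of each of the 36 genes in each of the 6 libraries, in CPM per kb of exon on a log axis, grouped by role and ordered by mean level. Circles, squares and triangles are replicates 1, 2 and 3, blue is wild type and red is Ythdf2-/-; the blue triangle, wild-type replicate 3, is the highest of the 6 libraries for 21 of the 33 genes tested.

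Between the genotypes, none of the members passed edgeR's test after adjustment. Of the 33 tested, 0 had an adjusted p under 0.05, as for all genes (0% of 13112), and 1, Nrp1, had an unadjusted p under 0.05 (3.63% of all genes). DESeq2, which gave all 36 members a p, called 0 after adjustment (0.525% of all genes) and 6, or 16.7%, before it (5.57% of all genes). limma-voom called 0 after adjustment (0% of all genes) and 1 before it (3.47% of all genes). The smallest adjusted p of a member in edgeR's test was 0.999, and a p that misses the threshold does not show that the levels were equal. In 4 members, 12.1% of those tested, the 3 Ythdf2-/- libraries all lay on one side of the 3 wild-type libraries. Nrp1, Sema3a and Plxnc1 were higher and Sema7a was lower, against 10.2% of all genes, so the share is close to that of the table as a whole. The fold change was negative in 22 members and positive in 11, and its median on the log2 scale was -0.15, beside -0.01 over all genes.

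That balance rested on 1 library. Wild-type replicate 3 was the highest of the 6 libraries in 21 of the 33 members (63.6%) and in 33.8% of all genes, and the lowest in 5 members (15.2%) and in 34.4% of all genes. The 21 were 12 semaphorins, 5 plexins and 4 mediators, and the 5 were Sema3a, Sema3c, Sema4b and both neuropilins. It differed over 2-fold from the mean of the other wild-type libraries in 17 members, upward in 15 and downward in Sema3a and Sema3c. Wild-type replicates 1 and 2 were close to each other: over the 25 members with a mean of at least 10 CPM, the larger was 1.03 times the smaller in the median and at most 1.21 times, in Plxna4. Without wild-type replicate 3 the fold change was positive in 25 members and negative in 8, and its median on the log2 scale was 0.32, beside 0.01 over all genes. The sign differed from that of the 6-library fit in 14 members. An unadjusted p under 0.05 was then found in 8 members (24.2%), 7 of them higher, and in 16.6% of all genes. The groups did not overlap in 10 members (30.3%), against 38.9% of all genes. None passed adjustment, where the smallest adjusted p of a member was 0.151 and 0.0151% of all genes passed. With the wild-type group at 2 libraries, that fit takes their spread together with that of the 3 Ythdf2-/- libraries.

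**Figure D2:**
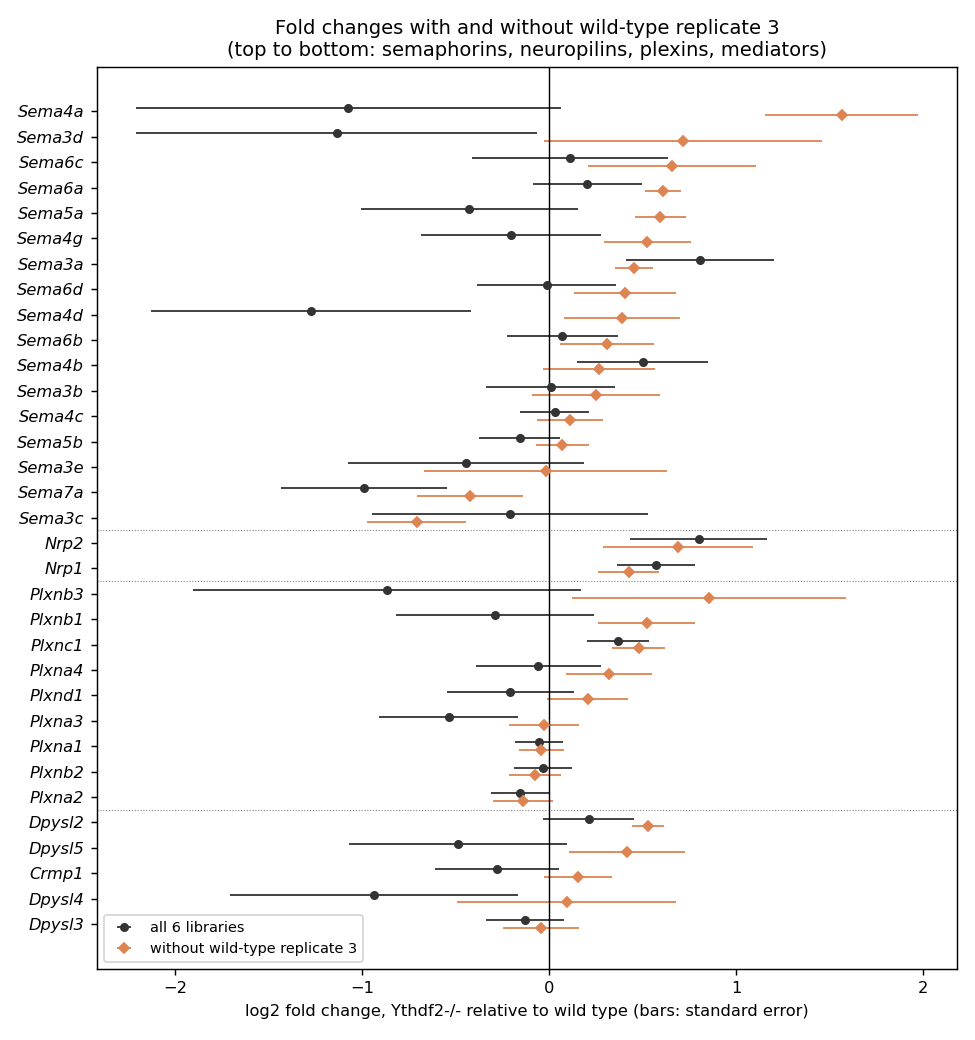
Log2 fold change of Ythdf2-/- relative to wild type for the 33 genes tested, from edgeR, with bars of 1 standard error; black is the fit of all 6 libraries and orange the fit without wild-type replicate 3. The signs differ between the fits in 14 genes, while Nrp1, Nrp2, Sema3a and Plxnc1 lie to the right of 0 and Sema7a and Sema3c to the left in both.

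Among the secreted ligands, Sema3a and Sema3c had opposite differences. Sema3a, the mammalian counterpart of collapsin and a repellent of cortical axons, measured 51.8, 51.1 and 17.7 CPM in wild type and 64.3, 73.5 and 73.3 CPM in Ythdf2-/-. The groups did not overlap, and wild-type replicate 3 was lower than all other libraries. Its log2 fold change was 0.81 ± 0.396 (SE; unadjusted p = 0.0854, adjusted p = 0.999 in edgeR) and 0.45 ± 0.104 without wild-type replicate 3 (unadjusted p = 0.0044, adjusted p = 0.178 in edgeR). The latter is a smaller difference with a smaller error, 1.37-fold.

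Sema3c, a secreted ligand known to attract cortical axons, measured 16.8, 16.0 and 1.83 CPM in wild type and 7.24, 13.3 and 9.40 CPM in Ythdf2-/-. All Ythdf2-/- libraries lay below wild-type replicates 1 and 2 and above wild-type replicate 3. The log2 fold change was -0.21 ± 0.738 with all libraries and -0.71 ± 0.265 without wild-type replicate 3 (unadjusted p = 0.0351 in edgeR). The other class 3 members that were tested, Sema3b, Sema3d and Sema3e, stayed at or under 3.58 CPM in every library except for Sema3d in wild-type replicate 3, at 10.1 CPM. Summed over class 3, the level was 11.5, 11.3 and 5.85 CPM per kb in wild type and 11.5, 13.9 and 12.8 CPM per kb in Ythdf2-/-, so wild-type replicate 3 had the lowest summed level of these ligands. That sum follows Sema3a and Sema3c, since the low members Sema3b, Sema3d and Sema3e were highest in wild-type replicate 3.

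The membrane semaphorins had their highest sum in that library. Their summed level over classes 4 to 7 was 91.3, 91.4 and 176 CPM per kb in wild type and 117, 105 and 131 CPM per kb in Ythdf2-/-. Wild-type replicates 1 and 2 were the lowest of the 6 libraries and wild-type replicate 3 the highest, with the Ythdf2-/- libraries between them. Of the 12 members tested in these classes, 5 were higher and 7 lower in Ythdf2-/- with all libraries, and 11 were higher and 1 lower without wild-type replicate 3.

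Sema6d led this group at 224, 222 and 447 CPM in wild type and 300, 197 and 387 CPM in Ythdf2-/-. Its groups overlapped, with 1 Ythdf2-/- library below all wild-type ones and none above them, and the log2 fold change was -0.01 ± 0.371, or 0.40 ± 0.272 without wild-type replicate 3. Sema6a, a transmembrane ligand of Plxna2 and Plxna4, measured 89.0, 91.3 and 178 CPM in wild type and 134, 130 and 148 CPM in Ythdf2-/-. The 3 Ythdf2-/- libraries lay close together, above wild-type replicates 1 and 2 and below wild-type replicate 3. Its log2 fold change was 0.20 ± 0.289 with all libraries and 0.61 ± 0.0978 without wild-type replicate 3 (unadjusted p = 7.02e-04, adjusted p = 0.151 in edgeR).

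Class 5 semaphorins carry thrombospondin repeats. Sema5a had 45.6, 42.6 and 181 CPM in wild type and 76.8, 62.4 and 60.4 CPM in Ythdf2-/-. Its log2 fold change turned from -0.43 ± 0.579 to 0.59 ± 0.136 without wild-type replicate 3 (unadjusted p = 0.00434 in edgeR). Sema5b differed less between libraries, at 74.8, 74.1 and 113 CPM in wild type and 68.3, 91.5 and 74.6 CPM in Ythdf2-/-, with a log2 fold change of -0.16 ± 0.216 and, without wild-type replicate 3, 0.0701 ± 0.141.

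Of class 4, Sema4a, better known from the immune system and the retina, was a low gene with the widest swing, with 1.2, 1.52 and 23.0 CPM in wild type and 5.45, 4.07 and 2.65 CPM in Ythdf2-/-. Wild-type replicate 3 held 16.9 times the mean of the other wild-type libraries, and the log2 fold change was -1.08 ± 1.14 with it and 1.56 ± 0.410 without it (unadjusted p = 0.00825 in edgeR). Sema4d, a ligand of Plxnb1 made by oligodendrocytes in the adult, was likewise highest in that library, at 3.59, 2.74 and 23.9 CPM in wild type and 4.09, 5.10 and 3.21 CPM in Ythdf2-/-. With all libraries the log2 fold change of Sema4d was -1.28 ± 0.856, and 0.39 ± 0.311 without that library. Sema4b went the other way there, at 46.3, 45.8 and 25.2 CPM in wild type and 60.9, 34.0 and 71.1 CPM in Ythdf2-/-. Ythdf2-/- replicate 2 of Sema4b lay among the wild-type values and the other Ythdf2-/- libraries above them.

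Sema7a, the lipid-anchored semaphorin that signals through integrins and Plxnc1, was the member that was lower in Ythdf2-/- without overlap. It measured 2.91, 2.82 and 7.04 CPM in wild type and 2.47, 2.0 and 1.93 CPM in Ythdf2-/-, all low levels. The log2 fold change was -0.99 ± 0.444 (unadjusted p = 0.0650 in edgeR) and -0.43 ± 0.283 without wild-type replicate 3 (unadjusted p = 0.182 in edgeR). Its size without that library was thus under that with all 6.

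**Figure D3:**
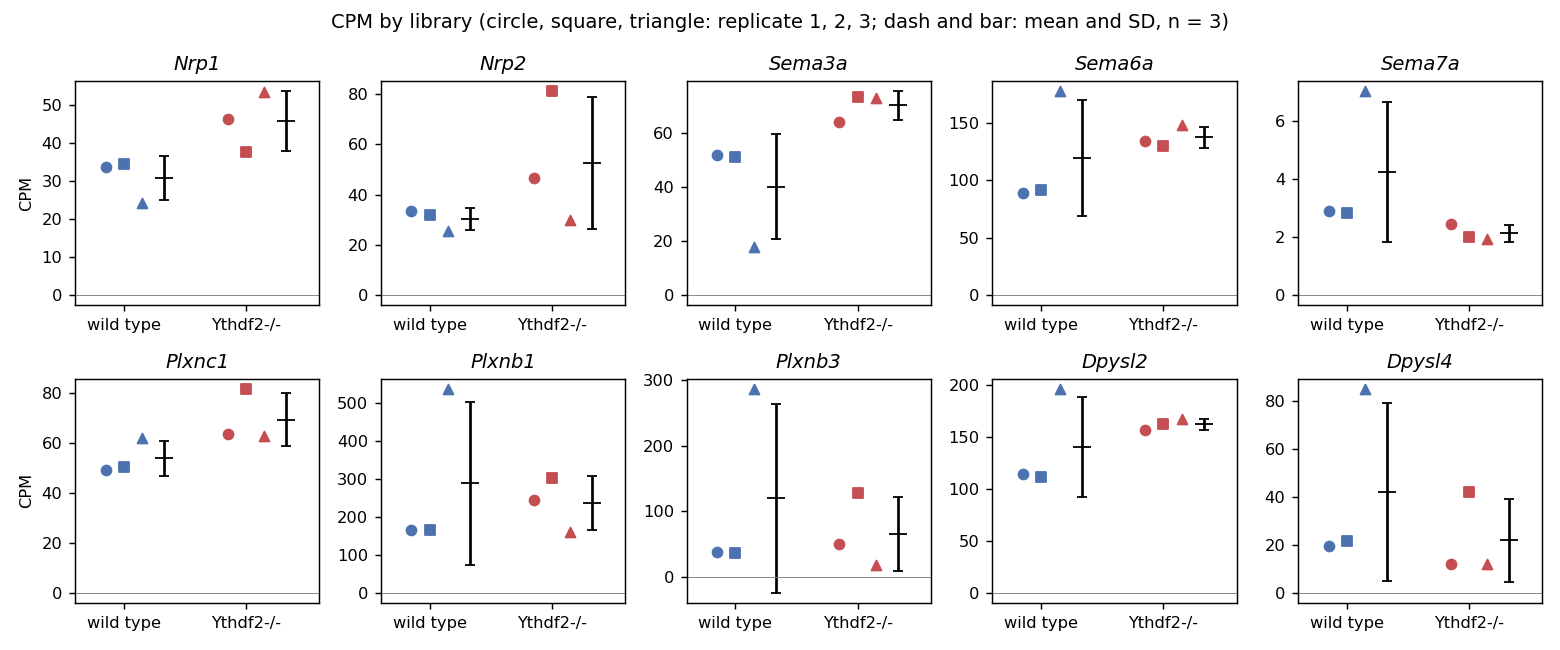
CPM in each library for 10 genes among the semaphorins, neuropilins, plexins and mediators, with replicates 1, 2 and 3 as circle, square and triangle and the mean with SD (n = 3) beside each group. For Nrp1, Sema3a and Plxnc1 all red points lie above all blue ones and for Sema7a below. For Sema6a, Sema7a, Plxnb1, Plxnb3, Dpysl2 and Dpysl4 the wild-type triangle is the highest point of the panel.

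Both neuropilins had a higher mean in Ythdf2-/- with all libraries and without wild-type replicate 3, in a role of only 2 members, while 6304 of all 13112 genes were higher with all libraries. Nrp1 (chromosome 8, plus strand, 128359073 to 128505476) measured 33.7, 34.6 and 24.2 CPM in wild type and 46.4, 37.6 and 53.4 CPM in Ythdf2-/-, that is 30.8 ± 5.75 against 45.8 ± 7.92 CPM (SD, n = 3). The lowest Ythdf2-/- library lay above the highest wild-type one. The log2 fold change was 0.57 ± 0.207 (SE), or 1.49-fold (unadjusted p = 0.0311, adjusted p = 0.999 in edgeR), and 0.42 ± 0.163 without wild-type replicate 3 (unadjusted p = 0.0391, adjusted p = 0.278 in edgeR). Without Ythdf2-/- replicate 1 or 3 the unadjusted p of edgeR's test was 0.0810 and 0.108.

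Nrp2 (chromosome 1, plus strand, 62703317 to 62818692) measured 33.4, 31.9 and 25.3 CPM in wild type and 46.8, 81.2 and 29.8 CPM in Ythdf2-/-. The Ythdf2-/- libraries differed among themselves by 2.72-fold, and the lowest of them fell among the wild-type values. Its log2 fold change was 0.80 ± 0.366 (unadjusted p = 0.0697 in edgeR) with all libraries and 0.69 ± 0.401 without wild-type replicate 3. Without Ythdf2-/- replicate 2 it was 0.35. The study singled out Nrp2 among other genes on these same libraries, so its direction here is not independent evidence. Outside these libraries, the study also assayed Nrp2 by RT-qPCR, m6A immunoprecipitation, binding to Ythdf2 and decay after actinomycin D.

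Of the plexins, 1 was higher and 8 were lower in Ythdf2-/- with all libraries, and 5 were higher and 4 lower without wild-type replicate 3. In the A subfamily, which pairs with neuropilins, Plxna1 and Plxna2 varied little. Plxna1 measured 142, 143 and 146 CPM in wild type and 137, 123 and 155 CPM in Ythdf2-/-, with a log2 fold change of -0.06 ± 0.130, or -0.0436 without wild-type replicate 3. Plxna2 had -0.15 ± 0.159, Plxna4 had -0.06 ± 0.334 and Plxna3, which lies on chromosome X, had -0.54 ± 0.373. Without wild-type replicate 3, Plxna2 was at -0.14, Plxna3 at -0.03 and Plxna4 at 0.32.

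The B subfamily, which binds class 4 semaphorins, held members of both kinds, steady and variable. Plxnb2 measured 430, 417 and 387 CPM in wild type and 344, 432 and 430 CPM in Ythdf2-/-, a log2 fold change of -0.03 ± 0.153, or -0.0764 without wild-type replicate 3. Plxnb1 measured 164, 165 and 537 CPM in wild type and 246, 303 and 160 CPM in Ythdf2-/-, with -0.29 ± 0.528 and, without wild-type replicate 3, 0.52 ± 0.260. Plxnb1 shares 210 exon bases with a predicted gene on the opposite strand, and the strand setting of the counting is not given in the sources used here.

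Plxnb3, known from oligodendrocytes in rodents and located on chromosome X, had the widest fold span of the plexins. It measured 36.8, 35.9 and 287 CPM in wild type and 50.3, 128 and 18.2 CPM in Ythdf2-/-, a 7.06-fold span within the Ythdf2-/- group. The log2 fold change was -0.87 ± 1.04 with all libraries and 0.85 ± 0.733 without wild-type replicate 3. Plxnb1 and Plxnb3 together made up 45.9% of the summed receptor level per kb in wild-type replicate 3 and 30.9% in Ythdf2-/- replicate 2, against 14.6% to 24.1% in the other 4 libraries. Both libraries had 1 Y-linked read, Ythdf2-/- replicate 1 had 0, and the first of them had the raised oligodendrocyte lineage markers given above. Ythdf2-/- replicate 2 had the next highest sum of that list, 2162 CPM against 1733 to 2000 CPM in the other 4 libraries, and was second for Cnp at 391 CPM and for Pdgfra at 72.9 CPM. Their part in the result was not tested.

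Plxnc1 (chromosome 10, minus strand, 94790866 to 94944845), the receptor of Sema7a, measured 49.2, 50.3 and 61.8 CPM in wild type and 63.5, 81.5 and 62.9 CPM in Ythdf2-/-. The groups did not overlap, although the nearest libraries, at 61.8 and 62.9 CPM, were close. The log2 fold change was 0.37 ± 0.166 (unadjusted p = 0.0680 in edgeR) and 0.48 ± 0.143 without wild-type replicate 3 (unadjusted p = 0.0149 in edgeR). Thus the ligand Sema7a had its lower values and its receptor its higher values in Ythdf2-/-, neither of them past adjustment. Plxnd1, the receptor of Sema3e, had 49.2, 49.9 and 99.0 CPM in wild type and 74.8, 45.9 and 50.8 CPM in Ythdf2-/-, which overlapped.

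The mediators were all highest in wild-type replicate 3 except for Dpysl3. Dpysl3 measured 319, 291 and 362 CPM in wild type and 241, 377 and 269 CPM in Ythdf2-/-, with a log2 fold change of -0.13 ± 0.208, or -0.0433 without wild-type replicate 3. Crmp1 measured 66.3, 63.7 and 133 CPM in wild type and 67.8, 89.7 and 59.2 CPM in Ythdf2-/-, with -0.28 ± 0.334 and 0.15 ± 0.182 without wild-type replicate 3. Dpysl4 and Dpysl5 were at 11.8 to 42.0 CPM in 5 libraries and at 85.2 and 52.7 CPM in wild-type replicate 3.

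Dpysl2, which promotes the assembly of tubulin and axon growth, had the tightest values of the mediators within Ythdf2-/-. It measured 114, 111 and 197 CPM in wild type and 157, 163 and 168 CPM in Ythdf2-/-. As for Sema6a and Sema5a, the 3 Ythdf2-/- libraries lay above wild-type replicates 1 and 2 and below wild-type replicate 3. The log2 fold change was 0.21 ± 0.242 with all libraries and 0.53 ± 0.0873 without wild-type replicate 3 (unadjusted p = 8.11e-04, adjusted p = 0.151 in edgeR).

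Set against each other, ligands and receptors did not separate the genotypes. The summed level of the semaphorins was 0.708, 0.717 and 0.758 of that of the plexins and neuropilins in wild type and 0.843, 0.652 and 0.975 of it in Ythdf2-/-, in CPM per kb. The means were 0.727 ± 0.0269 and 0.823 ± 0.162 (SD, n = 3), and the Ythdf2-/- values lay on both sides of the wild-type ones. Without wild-type replicate 3 the wild-type mean was 0.712 ± 0.00652 (SD, n = 2). The ratio in wild-type replicate 3 was near that of its group although both sums were raised there, to 182 CPM per kb for ligands and 240 for receptors from 103 and 143 to 145 in the other wild-type libraries. In Ythdf2-/- replicate 3, with the largest ratio, Sema6d alone made up 37.3% of the ligand sum, and in Ythdf2-/- replicate 2, with the smallest, it made up 23.0%. By medians of the log2 fold change the semaphorins were at -0.16 and the receptors at -0.06 with all libraries, and at 0.39 and 0.32 without wild-type replicate 3. The mediators were at -0.28 and 0.15.

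**Figure D4:**
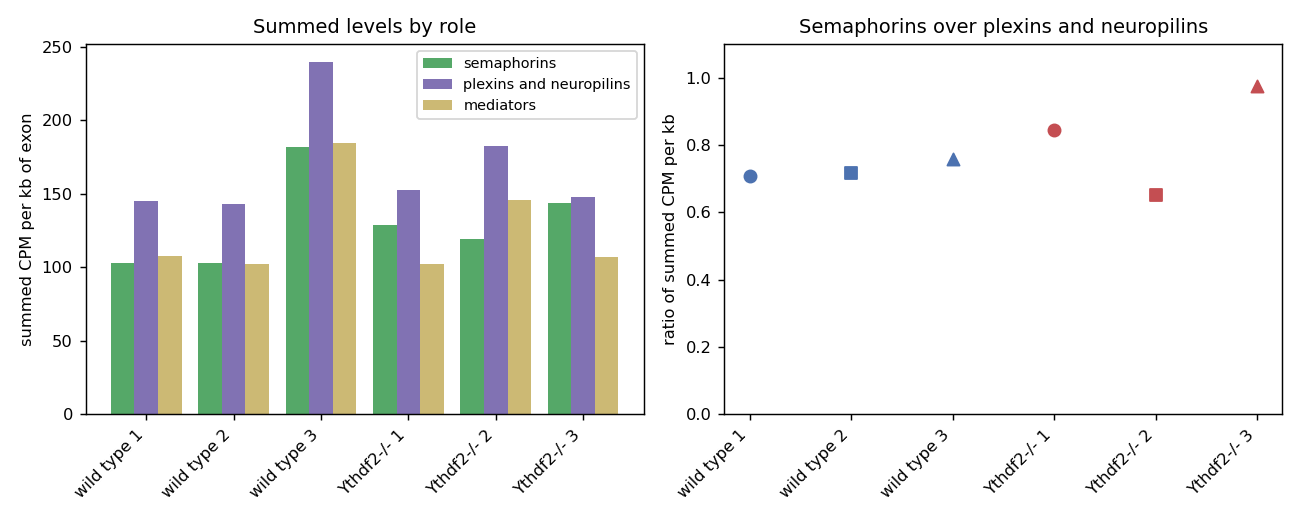
Left, bars from 0 of the summed CPM per kb of semaphorins, of plexins with neuropilins, and of mediators in each library; right, the ratio of the first sum to the second, with blue for wild type and red for Ythdf2-/-. All 3 sums are highest in wild-type replicate 3, and the ratios of Ythdf2-/- (0.652 to 0.975) span those of wild type (0.708 to 0.758).

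Of 40 other genes of the pathway, such as the MICAL oxidoreductases, exchange factors, small GTPases, kinases and co-receptors, 34 were tested. With all libraries 12 were higher and 22 lower in Ythdf2-/-, their median on the log2 scale was -0.07, and 0 passed adjustment in edgeR. Met, the receptor kinase that associates with B plexins, was the 1 gene of the 34 with an unadjusted p under 0.05, a share no higher than the 3.63% of all genes. It measured 6.07, 8.08 and 9.60 CPM in wild type and 2.47, 4.36 and 1.21 CPM in Ythdf2-/-, groups that did not overlap (as in 10.2% of all genes), with a log2 fold change of -1.55 ± 0.486 (unadjusted p = 0.0174, adjusted p = 0.999 in edgeR). Without wild-type replicate 3 the counts were 19 higher and 15 lower, with 6 of the 34 at an unadjusted p under 0.05, close to the 16.6% of all genes, and 0 after adjustment. Mical3, which acts on actin downstream of plexins, and Arhgef11 and Arhgef12, exchange factors bound to B plexins, were higher, at 0.73 ± 0.114, 0.37 ± 0.109 and 0.48 ± 0.193 on the log2 scale, against -0.00126, 0.15 and 0.29 with all libraries. Met, the GTPase Rap1b and the adhesion molecule Chl1, a partner of Nrp1, were lower, at -1.39 ± 0.492, -0.34 ± 0.0878 and -1.12 ± 0.347, against -1.55, -0.20 and -0.87 with all libraries.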

How the data were processed

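RNA of 3 wild-type and 3 Ythdf2-/- NSPC cultures was fragmented by the authors and sequenced from a stranded kit. The authors aligned reads to mm10 and deposited raw read counts per gene without normalization. Per the labels' processing notes, Bowtie2 2.2.9, RSEM 1.2.15 and featureCounts were used, and the strand setting and the treatment of reads shared by near-identical genes are not given in the sources used here. The authors also deposited, per library, a table of expected counts, TPM and FPKM. The deposited expected counts summed to 1.97% to 2.40% of the raw counts, so the deposited FPKM values rest on few reads (67.5 to 134 expected counts for all members of a library) and were used only as an alternative. The deposited TPM values were not used here.

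After filterByExpr had left 13112 genes, genotype was tested by glmQLFTest on a robust glmQLFit with TMM factors (edgeR 4.0.16, R 4.3.3), and p-values were adjusted over all these genes by the Benjamini-Hochberg method, with a threshold of 0.05. DESeq2 1.42.0, limma-voom (limma 3.58.1) with and without sample quality weights, limma on log2(FPKM + 1) and log2(FPKM + 0.1), other scalings and filters, a term for Y-linked reads (a sum above 3), the replicate number as a block and leaving out each library were the alternatives. The FPKM fold changes are on the log2(value + pseudocount) scale and understate low genes. With 3 libraries against 3, the smallest p of an exact permutation test of a single gene is 0.1, so none was used. The edgeR step was tested on simulated data. Exon lengths, positions and sequences came from RefSeq for GRCm38.p6 (pandas 2.3.3, numpy 2.4.6 and pysam 0.24.0 in Python 3.11.15), and per-length levels used the union of exons. All members were matched by symbol.

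Full values were given by rule to the neuropilins, the 3 highest members per kb of each role, members with an unadjusted p under 0.05 with or without wild-type replicate 3, and members whose groups do not overlap. Single values of other members, such as Sema4b, Sema4d, Plxnb3 and Plxnd1, were added after their values were seen. The members and lists were chosen with earlier results of these data known. No pair of libraries of the same genotype agreed within sampling noise: the chi-square per degree of freedom was 3.92 for the closest such pair, wild-type replicates 1 and 2.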

Additional observations from a re-analysis of the deposited data

How the results depend on the processing

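In all, 19 alternatives were run. The number of members with an unadjusted p under 0.05 (1 in the reported fit) was 6 of 36 with DESeq2 (5.57% of all genes), 11 of 33 with sample quality weights (28.1% of all genes), 8 once Y-linked reads were a covariate (10.95% of all genes) and 0 with either FPKM pseudocount (3.09% and 2.90% of all genes), and it ran from 0 to 8 when single libraries were left out, with 0 without Ythdf2-/- replicate 1 (1.85% of all genes), 3 without wild-type replicate 2 (2.66% of all genes) and 8 without wild-type replicate 3 (16.6% of all genes). After adjustment, sample quality weights, which gave wild-type replicate 3 a weight of 0.0957, passed 2 members, Sema6a (adjusted p = 0.0463) and Dpysl2 (adjusted p = 0.0486 in limma), beside 1.15% of all genes, and every other alternative, each library left out included, passed 0. Members whose groups do not overlap numbered 4 to 10 on leaving out single libraries, with 10 without wild-type replicate 3 (30.3%, against 38.9% of all genes), 9 without Ythdf2-/- replicate 2 (26.5% against 22.1%) and 7 without Ythdf2-/- replicate 3 (20.0% against 16.0%), where fewer libraries overlap less by construction. The semaphorin median was 0.36 with quality weights and 0.42 and 0.41 on FPKM at pseudocounts of 1 and 0.1, where the median of all genes was 0.11 and 0.14. On leaving out single libraries it ran from -0.34 to 0.39, the receptor median from -0.17 to 0.32 and the mediator median from -0.46 to 0.15, each positive end being the fit without wild-type replicate 3. The log2 ratio of ligands to receptors differed by 0.16 between genotypes, by 0.45 on summed FPKM and by 0.03 to 0.32 on leaving out single libraries.

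Ythdf2 passed the threshold under RLE scaling (-2.67, adjusted p = 0.0474), upper-quartile scaling (-2.66, adjusted p = 0.0413), DESeq2 (-2.66), quality weights (-2.61), no filter (-2.64), at least 10 reads in every library (-2.66) and the Y-linked term (-2.75). It did not pass with limma-voom (adjusted p = 0.0727) or the replicate block (adjusted p = 1.0). On leaving out single libraries it ran from -2.78 to -2.54, and passed without wild-type replicate 3 (adjusted p = 0.0203) but not without any one of the other 5 (adjusted p = 0.246 to 0.866). On FPKM it turned to 0.32 and 1.13, where the gene is listed at 0 in 5 of 6 libraries. Fold changes were recomputed for the 17 members given full values, and the others may turn too, as Sema4d and Plxnb3 did without wild-type replicate 3. Among the 17 the sign turned with limma-voom in Sema3c (0.25), Sema4a (0.20) and Sema6d (0.0117), and with quality weights in Crmp1 (0.0624), Plxnb1 (0.45), Sema4a (1.59), Sema5a (0.67) and Sema6d (0.42). It turned without a filter in Sema6d (0.0119) and with the Y-linked term in Plxnb2 (0.0114) and Sema3c (0.68). On FPKM, where Sema4a and Sema7a gave no value, it turned at pseudocounts of 1 and 0.1 in Plxnb2 (0.24 and 0.31), Sema5a (0.47 and 0.41), Sema5b (0.80 and 1.02) and Sema6d (0.79 and 1.09). The cause was not tested. On leaving out single libraries the ranges were Crmp1 -0.46 to 0.15, Dpysl3 -0.33 to 0.00781, Plxna1 -0.15 to 0.0355, Plxnb1 -0.57 to 0.52, Plxnb2 -0.0856 to 0.0760, Sema3c -0.71 to 0.16, Sema4a -1.59 to 1.56, Sema5a -0.76 to 0.59, Sema5b -0.27 to 0.0701 and Sema6d -0.26 to 0.40, while Nrp1 (0.42 to 0.70), Nrp2 (0.35 to 1.08), Sema3a (0.45 to 1.03), Plxnc1 (0.24 to 0.48), Sema6a (0.03 to 0.61), Dpysl2 (0.07 to 0.53) and Sema7a (-1.22 to -0.43) kept their sign.

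Libraries of the same number did not deviate together from their group means (correlations of -0.25, -0.24 and -0.39). Wild-type replicate 3 sets most of the wild-type deviations, so these correlations cannot decide whether the numbers pair the samples. With the replicate number as a block, 0 members had an unadjusted p under 0.05 and 183 of all genes did, against 476, and Sema3c (0.18), Sema4a (0.33) and Sema6d (0.0139) turned in sign.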
